A study of Mus musculus with 9 samples.

Results

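Collagen chains were taken as the protein-coding genes whose GENCODE M21 symbol consists of Col, a type number, the letter a and a chain number. The rule found 44 chains among 56398 features of the count table, and each was matched by its Ensembl identifier. Bulk RNA-seq gene counts and FPKM (counts per kilobase of gene length, scaled to the library total) were analysed in 9 libraries from BALB/c mice, 3 per group. The AC group held tumours grown from injected CT26, a colon carcinoma line derived from BALB/c mice, in animals dosed daily at 6 g/kg with a herbal mixture of Astragalus and Curcuma phaeocaulis Valeton in parts of 2:1. The model group held CT26 tumours of mice that received saline each day, also stated as 6 g/kg. The sham group held healthy colon of BALB/c mice. Tumours hold injected CT26 cells beside host cells, which healthy colon does not, so tissue makeup and disease cannot be told apart between them. The sources used here give no age, sex or injection site and do not say whether a group's 3 samples are 3 animals, so p-values cover the spread among these samples and that spread may be technical.

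Collagens are secreted or membrane-bound proteins whose chains wind into a helix of several chains, and the chains that assemble together decide the type of network that is built. Fibril-forming collagens give tissue its tensile strength, fibril-associated collagens decorate these fibrils, type IV collagen forms the sheet of basement membranes, type VI forms beaded microfilaments near cells, and short-chain collagens build hexagonal lattices. In colon, collagens are made mainly by fibroblasts and smooth muscle, and in tumours by stromal cells and in some models by the cancer cells. Assembly needs hydroxylases and chaperones in the endoplasmic reticulum, then proteases and lysyl oxidases outside the cell.

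Col8a1 and Col16a1 showed the steepest differences between tumours and colon among chains that reached 1 FPKM, so the sequence upstream of their starts is shown, 5′ to 3′ on the strand of the gene, with matches to 4 short motifs in capitals. The windows are the 250 bases before the RefSeq start, GRCm38.p6, at chr16:57754738-57754987 (minus strand) for Col8a1 and chr4:130047590-130047839 (plus strand) for Col16a1.
Col8a1: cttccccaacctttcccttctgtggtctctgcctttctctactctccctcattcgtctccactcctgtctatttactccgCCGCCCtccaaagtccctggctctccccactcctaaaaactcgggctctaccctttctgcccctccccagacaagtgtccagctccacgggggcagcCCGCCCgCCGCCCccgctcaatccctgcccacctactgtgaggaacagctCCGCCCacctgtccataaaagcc
Col16a1: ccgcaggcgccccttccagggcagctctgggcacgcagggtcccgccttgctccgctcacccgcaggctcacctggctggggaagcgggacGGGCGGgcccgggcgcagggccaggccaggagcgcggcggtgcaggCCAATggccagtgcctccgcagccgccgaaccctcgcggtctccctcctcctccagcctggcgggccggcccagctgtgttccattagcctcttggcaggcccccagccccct
Motifs were searched on both strands and were the CCAAT box, the GC box with the letters GGGCGG, the TATA box with the letters TATAAA and the AP-1 site with the letters TGANTCA. The Col8a1 window held 4 GC boxes, all on the strand opposite to the one printed, of which the nearest lay at bases -23 to -18 from the start. In the Col16a1 window there was 1 GC box at -159 to -154 and 1 CCAAT at -113 to -109. RefSeq promoter windows were matched for 35 of the 44 chains, in 38 windows. GGGCGG was present in 22 of the 38, or 57.9%, against 32.7% of all 32851 windows of the same length. CCAAT was present in 34.2% of collagen windows and 33.8% of all windows, TATAAA in 13.2% and 12.4%, and TGANTCA in 2.63% and 6.75%. These are matches of letters and were not tied to binding of any factor.

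Total counts per library lay between 15690038 and 23476056, and 3 counts, the floor used for a gene that was not detected, equal 0.128 to 0.191 CPM. The labels fitted the markers of the tissue: summed FPKM of 8 epithelial markers was 158 to 484 in AC tumours, 111 to 260 in model tumours and 6683 to 8855 in sham colon. Libraries AC 3 and model 1 had more of it than the other tumours, with Epcam at 39.3 FPKM in AC 3 and 19.98 FPKM in model 1 against 0.149 to 0.548 FPKM in the other 4. Krt20 alone held 153 to 239 FPKM of the sum in AC tumours and 108 to 142 FPKM in model tumours. Library sham 1 stood apart from the other colon samples: 9 smooth muscle markers summed to 33.8 FPKM in sham 1 against 361 and 382 FPKM in sham 2 and sham 3, and 7 B cell markers to 265 against 33.3 and 14.9 FPKM. Summed FPKM of 10 fibroblast markers was 66.7 to 103 in AC tumours, 114 to 122 in model tumours and 14.4 to 22.9 in sham colon, and that of 8 endothelial markers was 29.6 to 41.1, 36.3 to 37.9 and 5.27 to 5.69. Chondrocyte, skeletal muscle and keratinocyte markers summed to at most 3.10 FPKM in every library. In bulk tissue, fewer cells of a type and less RNA per cell cannot be told apart.

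Collagen transcripts were far more abundant in tumours than in colon. Summed over the 44 chains, FPKM was 305, 318 and 375 in AC tumours, 531, 418 and 459 in model tumours and 20.9, 25.3 and 26.2 in sham colon. No group overlapped with another. The means were 333 ± 37.2 in AC, 469 ± 57.3 in model and 24.1 ± 2.86 in sham (SD, n = 3 each), which put AC tumours at 13.8 times and model tumours at 19.4 times the colon level. FPKM carries none of the scaling factors (TMM) used in the tests below, which made rises against colon smaller. The median log2 fold change of the tested chains was 1.85 (AC) and 2.15 (model) with these factors, and 2.48 and 2.77 without them. The largest single contributor in tumours was Col1a2, with 25.1% ± 2.49 of the collagen sum in AC tumours, 21.6% ± 1.12 in model tumours and 9.36% ± 4.65 in sham colon. In colon the leading chain was Col3a1, with 20.1% ± 4.72 of the sum, against 7.71% ± 3.75 in AC and 10.3% ± 1.56 in model tumours. These shares rest on the length of all annotated exons. With the longest coding transcript, a length chosen after the data were seen, mean Col1a2 was 236 in place of 101 FPKM in model tumours. Mean Col3a1 was 8.39 in place of 4.76 FPKM in sham colon, and each stayed the leading chain there.

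**Figure D1:**
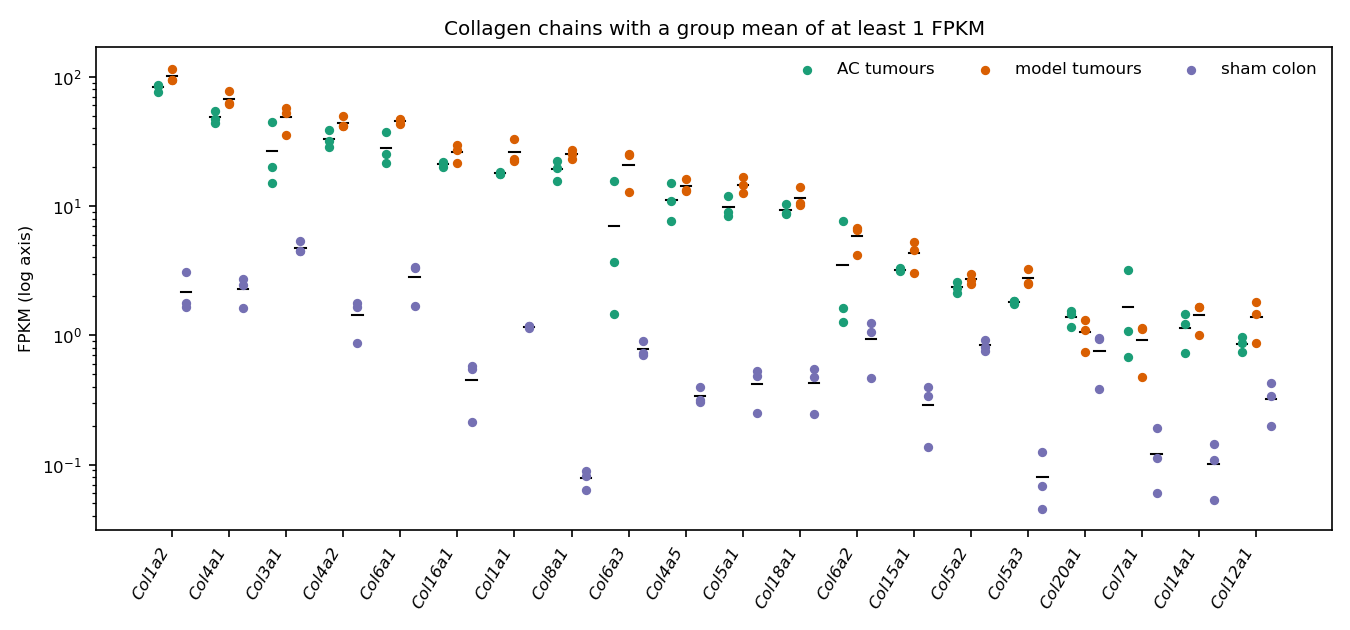
Deposited FPKM per library (log axis) of the 20 collagen chains that reached a mean of 1 FPKM in at least 1 group; points are libraries, black bars are means of 3, with AC tumours left, model tumours in the middle and sham colon right. For most chains every tumour library lies above every colon library, as for Col8a1 at 15.6 to 27.3 FPKM in tumours and 0.0635 to 0.0897 FPKM in colon, while Col20a1 lies close to its colon values.

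The share of the collagen sum differed between tumours and colon for some classes of collagen. Fibril-forming chains made up 42.7% ± 1.33 of the collagen FPKM in AC tumours, 41.9% ± 1.05 in model tumours and 43.0% ± 10.7 in sham colon, where sham 1 had 55.3% and the other 2 had 36.4% and 37.3%. Type IV chains held 28.2% ± 4.38 in AC, 26.9% ± 1.43 in model and 17.3% ± 2.29 in sham. Short-chain collagens held 5.80% ± 0.575 in AC, 5.60% ± 0.588 in model and 1.22% ± 0.379 in sham. Type VI chains moved the other way, with 11.4% ± 4.25 in AC, 15.5% ± 1.45 in model and 22.8% ± 3.95 in sham. Transmembrane collagens held 0.0624% ± 0.0107 in AC, 0.0516% ± 0.0163 in model and 3.53% ± 1.14 in sham (SD, n = 3 each). For type IV, short-chain, type VI and transmembrane chains all tumour libraries lay on the same side of all colon libraries. These shares are descriptions with no test and rest on the length of all annotated exons.

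**Figure D2:**
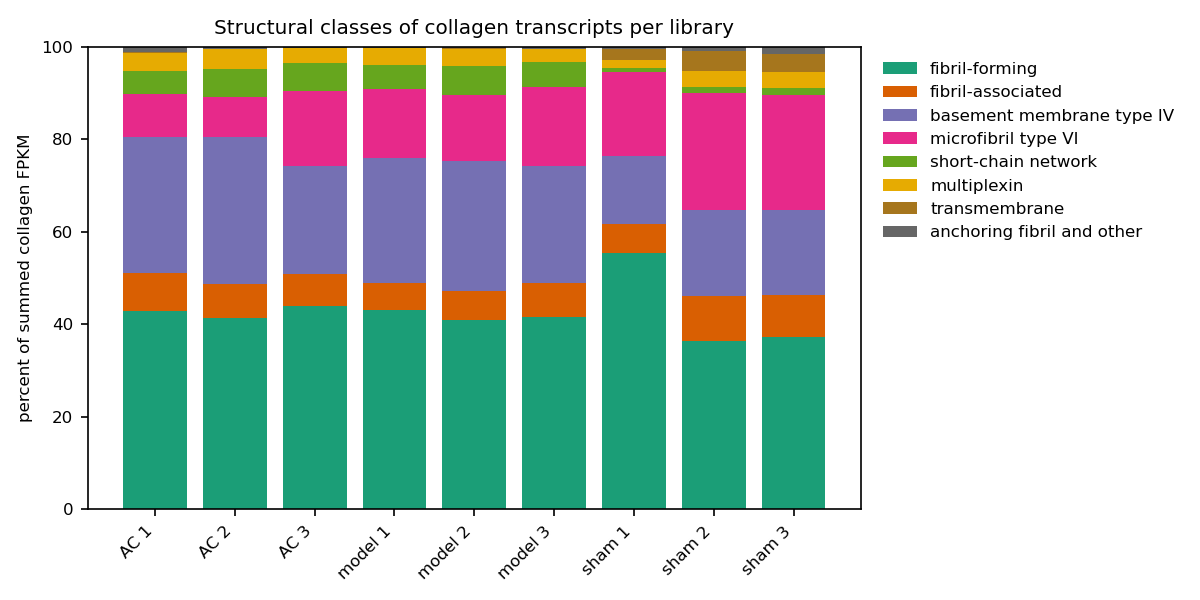
Share of the summed collagen FPKM (percent, stacked to 100) held by each of 8 structural classes in every library, AC tumours left, then model tumours, then sham colon. Short-chain chains hold 5.14 to 6.28% in the tumour libraries and 0.798 to 1.54% in colon, and sham 1 differs from sham 2 and sham 3 in its larger fibril-forming share.

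Tests used edgeR's quasi-likelihood method on the 6 libraries of the groups compared, and a chain was called when its p, adjusted over all genes by the Benjamini-Hochberg method, was under 0.05. In AC tumours against sham colon, 31 of 44 chains passed the filter on low counts, of which 17 were higher, 7 lower and 7 not called. Of all 17832 genes tested, 68.2% were called, 35.5% higher and 32.7% lower. In model tumours against sham colon, 36 chains were tested, of which 22 were higher, 8 lower and 6 not called, beside 69.7% of all 18228 genes, 36.8% higher and 32.9% lower. The median log2 fold change of the tested chains was 1.85 in AC and 2.15 in model tumours against colon, the second 1.96 with Col6a6 at its lower bound, beside 0.0997 and 0.118 over all genes. FPKM was without overlap for 29 of 31 chains in AC against sham, beside 79.3% of all genes, and for 30 of 36 in model against sham, beside 79.9%. Both tumour groups were set against the same 3 colon libraries. Fibroblast markers were higher for 5 of 10 in AC and 6 of 10 in model tumours, with Dpt lower in each; their part in the collagen values was not tested. Without scaling factors, the all-gene median was 0.747 in AC and 0.724 in model tumours against colon, and the all-gene calls split into 8832 higher and 4114 lower (AC) and 9060 higher and 4405 lower (model), where the TMM-scaled test gave 6339 and 5826 (AC) and 6700 and 5997 (model). The chains split into 20 higher and 7 lower in AC and 23 higher and 7 lower in model tumours without it. Without sham 1 they split into 16 higher and 8 lower in AC and 22 higher and 9 lower in model tumours.

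**Figure D3:**
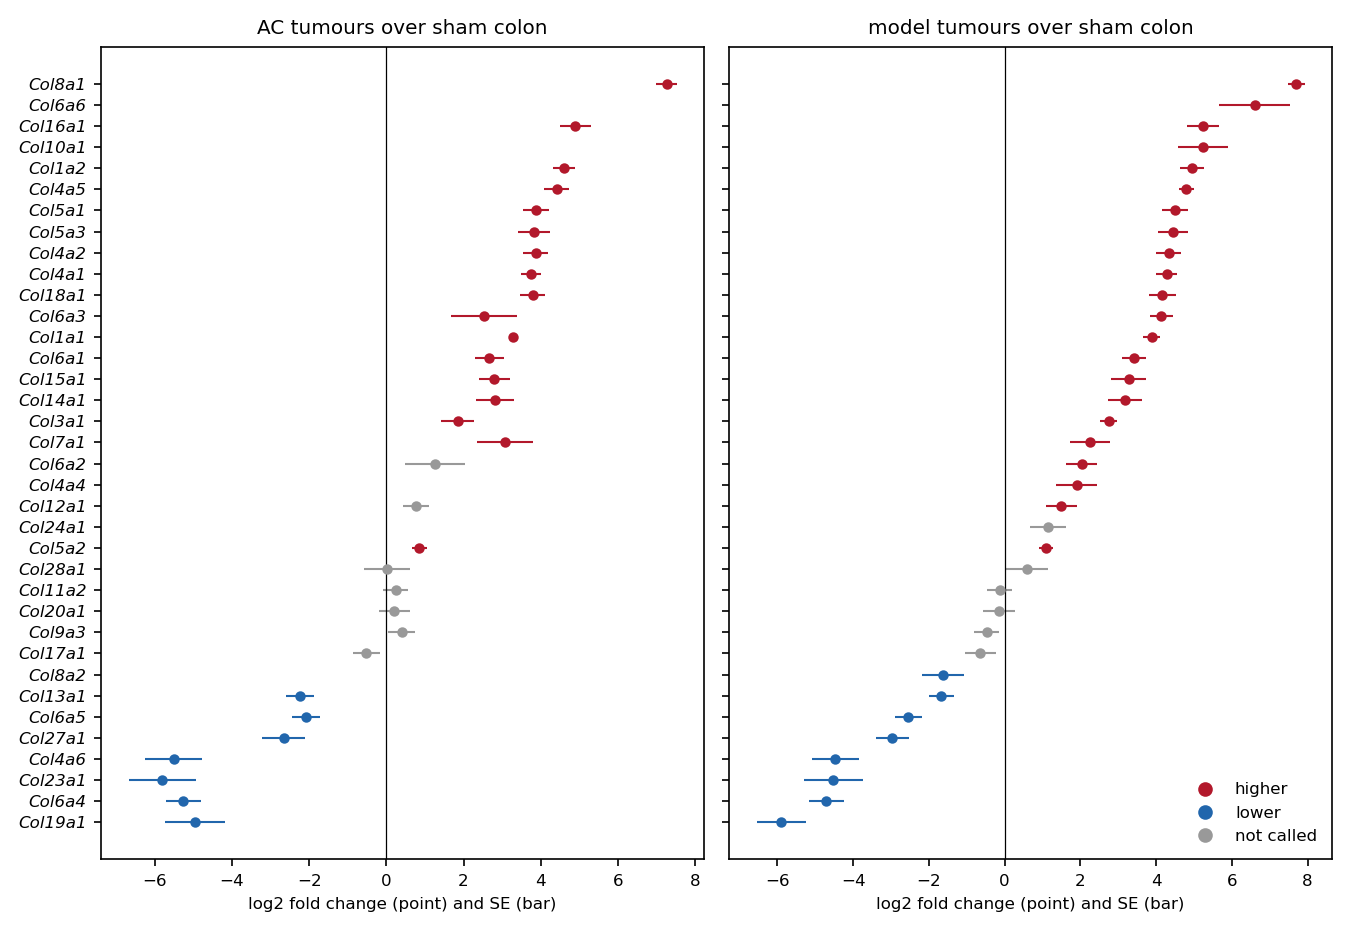
Log2 fold change (point) and SE (bar) of each tested collagen chain in AC tumours over sham colon (left) and model tumours over sham colon (right), ordered by the right panel; red is called higher, blue called lower, grey not called, and a chain with no point was not tested. Col8a1 is at the top with 7.26 in AC and 7.70 in model tumours, and Col19a1, Col6a4, Col23a1 and Col4a6 lie at the bottom; the value of Col6a6, with 0 counts in colon, is no bound.

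Among the fibril-forming chains, 6 of 8 tested rose and 1 fell in AC tumours, and 6 of 9 rose and 1 fell in model tumours against colon, beside 68.2% (AC) and 69.7% (model) of all genes called. Col1a2 (ENSMUSG00000029661, chromosome 6, 4504814 to 4541544, plus strand, GRCm38), a chain of collagen I, the main fibril of connective tissue, had 85.2, 76.6 and 87.1 FPKM in AC tumours, 115, 95.1 and 94.2 FPKM in model tumours and 3.07, 1.66 and 1.79 FPKM in sham colon. Every tumour library lay far above every colon library, with the highest colon value in sham 1. Its log2 fold change was 4.61 ± 0.28 in AC over sham (SE, adjusted p = 5.58e-05) and 4.95 ± 0.31 in model over sham (adjusted p = 4.12e-05). The partner chain Col1a1 had 17.7, 17.8 and 18.2 FPKM in AC, 33.0, 22.3 and 23.1 FPKM in model and 1.19, 1.19 and 1.13 FPKM in sham, and rose by 3.29 ± 0.12 in AC (adjusted p = 2.61e-05) and 3.88 ± 0.23 in model tumours (adjusted p = 3.52e-05).

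The usual collagen I helix holds more chains from Col1a1 than from Col1a2, but the deposited FPKM of Col1a1 was the lower of the pair in every library. The ratio of Col1a1 to Col1a2 was 0.216 ± 0.0137 in AC, 0.255 ± 0.0283 in model and 0.579 ± 0.173 in sham (SD, n = 3 each), and every tumour library lay below every colon library. The level of a chain depends on the length it is divided by: FPKM used all annotated exons, 12426 bases for Col1a2 and 6563 for Col1a1, where the longest coding transcripts have 5348 and 5930 bases. With those lengths the ratio was 0.103 in AC, 0.122 in model and 0.276 in sham, a change by the same factor in every library.

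Col3a1, the collagen III of compliant tissue such as gut wall, was the most abundant fibril-forming chain in colon, with 15.0, 19.9 and 44.9 FPKM in AC, 57.2, 35.5 and 52.7 FPKM in model and 5.33, 4.45 and 4.49 FPKM in sham. AC 3 lay within the model values and the other AC libraries below them. It rose by 1.85 ± 0.43 in AC (adjusted p = 0.00812) and 2.75 ± 0.22 in model tumours (adjusted p = 9.83e-05) on the log2 scale, and without sham 1 the AC value was 1.80 (adjusted p = 0.0587). Its ratio to Col1a1 was 1.48 ± 0.865 in AC, 1.87 ± 0.365 in model and 4.07 ± 0.388 in sham.

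Collagen V chains, which start collagen I fibrils and limit their width, rose by unequal amounts. Col5a1 rose by 3.87 ± 0.34 in AC and 4.50 ± 0.34 in model tumours and Col5a3 by 3.82 ± 0.41 and 4.45 ± 0.39, where Col5a2, a partner of Col5a1 in the common helix, rose by 0.85 ± 0.19 and 1.09 ± 0.19 (edgeR adjusted p from 7.6e-05 to 0.00774 for these 6 values). The FPKM ratio of Col5a1 to Col5a2 was 4.17 ± 0.852 in AC, 5.40 ± 0.592 in model and 0.504 ± 0.175 in sham, with no overlap between tumours and colon. Without scaling factors, all 3 collagen V chains were also higher in both tumour groups. Col27a1, a cartilage-associated fibril chain, was the fibril-forming chain that fell, with a log2 fold change of -2.66 ± 0.56 in AC (adjusted p = 0.00552) and -2.97 ± 0.44 in model tumours (adjusted p = 0.00109), at levels of 0.0372 to 0.147 FPKM in tumours and 0.260 to 0.454 FPKM in colon. Col11a2, whose product takes part in cartilage fibrils, was not called, with 0.24 ± 0.32 in AC and -0.13 ± 0.33 in model tumours, and without scaling had 0.89 in AC, which was called (adjusted p = 0.0375), and 0.47 in model tumours.

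Type IV collagen showed opposite directions among its 6 chains. Col4a1 (ENSMUSG00000031502, chromosome 8, 11198423 to 11312826, minus strand), which with Col4a2 forms the helix common to all basement membranes, had 47.1, 54.7 and 43.5 FPKM in AC, 78.1, 63.0 and 61.5 FPKM in model and 1.63, 2.47 and 2.74 FPKM in sham. The 3 groups did not overlap, and model tumours were highest. It rose by 3.75 ± 0.25 in AC (adjusted p = 7.02e-05) and 4.28 ± 0.28 in model tumours (adjusted p = 4.84e-05). Col4a2, which starts on the other strand so close that the first exons of the pair share 22 bases, rose by 3.87 ± 0.33 and 4.33 ± 0.33. Col4a1 stood at 1.41 to 1.58 times the FPKM of Col4a2 in the 6 tumours and at 1.39 to 1.89 times in colon.

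Col4a5 and Col4a6, a pair of neighbours on chromosome X that also start in opposite directions, 1309 bases apart, moved apart. Col4a5 (ENSMUSG00000031274, X, 141475385 to 141689234, plus strand), a chain of glomerular and other specialised basement membranes, had 10.95, 7.65 and 15.1 FPKM in AC, 16.1, 13.2 and 13.4 FPKM in model and 0.398, 0.304 and 0.314 FPKM in sham. Tumours exceeded colon in every library, and the 2 tumour groups overlapped. It rose by 4.41 ± 0.32 in AC (adjusted p = 8.72e-05) and 4.79 ± 0.20 in model tumours (adjusted p = 1.78e-05). Col4a6, known from the basement membranes of smooth muscle, had 1 count over the AC libraries and 3 over the model libraries, where sham colon had 45, at 0.0780 FPKM in sham 1, 0.117 in sham 2 and 0.120 in sham 3. The scaled ratio put it 66.0-fold lower in AC (counting interval 11.3 to 2660) and 25.5-fold lower in model tumours (8.19 to 128), and it was called lower in each (adjusted p = 0.00087 and 0.000842). Col4a4 rose by 1.90 ± 0.55 in model tumours (adjusted p = 0.02) at no more than 0.102 FPKM, a call that was lost without model 1, model 2 or sham 3 (adjusted p = 0.0616, 0.066 and 0.0712). Its neighbour Col4a3, which starts 72 bases away, had 4, 20 and 22 counts over the AC, model and sham libraries and was not tested; 5.65% of its exon length overlaps another gene.

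Of the type VI chains, 2 of 5 tested rose and 2 fell in AC tumours, and 4 of 6 rose and 2 fell in model tumours against colon. Beside them, 68.2% (AC) and 69.7% (model) of all genes were called, 35.5% and 36.8% higher and 32.7% and 32.9% lower. Col6a1 (ENSMUSG00000001119, chromosome 10, 76708792 to 76726168, minus strand), a chain of the beaded microfilaments around fibroblasts and muscle, had 25.3, 21.6 and 37.4 FPKM in AC, 47.1, 43.2 and 46.6 FPKM in model and 1.69, 3.33 and 3.39 FPKM in sham. The groups did not overlap, and sham 1 was the lowest colon sample. It rose by 2.67 ± 0.37 in AC (adjusted p = 0.000952) and 3.41 ± 0.31 in model tumours (adjusted p = 0.000146). Its partners Col6a2 and Col6a3 rose by 2.03 ± 0.41 and 4.14 ± 0.31 in model tumours (adjusted p = 0.00427 and 7.11e-05). In AC tumours the value was 1.27 ± 0.78 for Col6a2, which was not called (adjusted p = 0.189) and was -0.01 without AC 3, and 2.53 ± 0.86 for Col6a3, which was called (adjusted p = 0.0371). The Col6a3 call was lost without AC 3, where its value was 1.09 (adjusted p = 0.0666), without sham 1, sham 2 or sham 3 (adjusted p = 0.188, 0.101 and 0.11), and with no filter on low counts (2.58, adjusted p = 0.108).

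Col6a4 and Col6a5 encode alternatives to the Col6a3 chain in the type VI helix and were lower in tumours. Col6a4 had 0.0197, 0.0449 and 0.0292 FPKM in AC, 0.0650, 0.0361 and 0.0284 FPKM in model and 0.540, 0.984 and 0.812 FPKM in sham, a log2 fold change of -5.26 ± 0.46 in AC (adjusted p = 0.00017) and -4.71 ± 0.47 in model tumours (adjusted p = 0.000215). Col6a5 fell too, with -2.08 ± 0.36 in AC and -2.54 ± 0.36 in model tumours (adjusted p = 0.00256 and 0.000956). Col6a6, the remaining alternative, went the other way at low level: it had 50 counts over the AC libraries, 46 over the model libraries and 0 in sham colon, at least 3.64-fold higher in AC and at least 2.92-fold higher in model tumours against a floor of 3 counts per library. It was called higher in model tumours (adjusted p = 0.00286) and did not pass the filter in AC against sham.

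Fibril-associated collagens ranged from a large rise to a near loss. Col16a1 (ENSMUSG00000040690, chromosome 4, 130047840 to 130099283, plus strand), an adaptor between fibrils and other matrix, had 21.5, 19.9 and 22.1 FPKM in AC, 27.2, 21.4 and 29.8 FPKM in model and 0.212, 0.578 and 0.550 FPKM in sham. Both tumour groups stood above all colon libraries and overlapped with each other, and sham 1 was lowest. Col16a1 rose by 4.90 ± 0.40 in AC (adjusted p = 0.000135) and 5.24 ± 0.42 in model tumours (adjusted p = 9.26e-05). Col14a1, which binds fibrils in dense tissue, rose by 2.81 ± 0.49 and 3.18 ± 0.44 (adjusted p = 0.00245 and 0.000849). Col12a1, its close relative, rose by 1.5 ± 0.41 in model tumours (adjusted p = 0.0153) and had 0.76 ± 0.34 in AC tumours, which was not called (adjusted p = 0.0835) unless no scaling factors were used (adjusted p = 0.00718). Col19a1 had 2 counts over the AC libraries and 1 over the model libraries, against 51 in sham colon, where it stood at 0.154, 0.152 and 0.117 FPKM. The scaled ratio was 37.4-fold lower in AC (counting interval 9.83 to 317) and 86.7-fold lower in model tumours (14.9 to 3490), and both were called. Col20a1, with 1.54, 1.46 and 1.16 FPKM in AC, 0.737, 1.31 and 1.11 FPKM in model and 0.387, 0.929 and 0.956 FPKM in sham, was not called (0.21 ± 0.40 in AC and -0.16 ± 0.42 in model tumours), and the second value was 0.47 without scaling.

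The short-chain collagen Col8a1 had the largest rise of any chain with at least 1 FPKM. Col8a1 (ENSMUSG00000068196, chromosome 16, 57624258 to 57754737, minus strand), known from remodelling vessels and the lining membrane of the cornea, had 15.6, 19.6 and 22.3 FPKM in AC, 27.3, 25.1 and 23.3 FPKM in model and 0.0635, 0.0818 and 0.0897 FPKM in sham. The 3 groups did not overlap, and colon held 33 counts in all against 7405 in AC and 11852 in model tumours. It rose by 7.26 ± 0.26 in AC, or 154-fold (adjusted p = 2.61e-05), and by 7.70 ± 0.22 in model tumours, or 208-fold (adjusted p = 1.41e-05). Col8a2, the chain that can join it in the lattice, showed no such rise: it had 0.0622, 0.0426 and 0.0692 FPKM in AC, 0.133, 0.0800 and 0.0945 FPKM in model and 0.0831, 0.234 and 0.313 FPKM in sham. Model 1 and model 3 exceeded sham 1, so the groups overlapped. Col8a2 was called lower in model tumours (-1.63 ± 0.55, adjusted p = 0.0349), and that call was lost without scaling, without the filter on low counts, and without any of model 1, model 2, model 3, sham 2 or sham 3 (adjusted p from 0.0596 to 0.124). Col10a1, the collagen of growth plate cartilage, had 24 counts in AC, 145 in model and 2 in sham. The ratio to colon was 8.19 in AC (counting interval 2.03 to 71.5, not tested) and 42.6 in model tumours (11.6 to 355, called, adjusted p = 0.000579). Summed chondrocyte markers were 0.122 to 0.205 FPKM in AC, 0.0688 to 0.331 in model and 0.377 to 0.828 in sham. The part of chondrocytes in the Col10a1 values was not tested.

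The multiplexins Col18a1 and Col15a1, basement membrane collagens with long side chains of sugar, both rose. Col18a1 (ENSMUSG00000001435, chromosome 10, 77052178 to 77166548, minus strand), the source of endostatin, had 8.67, 10.4 and 8.80 FPKM in AC, 14.1, 10.5 and 10.2 FPKM in model and 0.248, 0.473 and 0.550 FPKM in sham. AC 2 reached into the model range and no tumour approached colon. The rise was 3.79 ± 0.33 in AC (adjusted p = 0.000167) and 4.16 ± 0.36 in model tumours (adjusted p = 0.000128) for Col18a1, and 2.80 ± 0.41 and 3.27 ± 0.46 (adjusted p = 0.00122 and 0.000901) for Col15a1. Markers of endothelial cells, which also sit on these membranes, were higher for 6 of 8 in AC and 7 of 8 in model tumours. The shares of all genes higher were 35.5% (AC) and 36.8% (model). The part of endothelial cells in the result was not tested.

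Transmembrane collagens, which stay anchored in the plasma membrane, included no chain that rose. Col23a1 (ENSMUSG00000063564, chromosome 11, 51289920 to 51583918, plus strand) had 0.00974, 0.0222 and 0.0108 FPKM in AC, 0.0223, 0.0537 and 0.0317 FPKM in model and 0.152, 0.772 and 0.726 FPKM in sham. Tumours lay below colon in every library, and sham 1 was the lowest colon library, as it was for the smooth muscle markers; the part of muscle in this value was not tested. Col23a1 fell, with a log2 fold change of -5.81 ± 0.87 in AC (adjusted p = 0.00135) and -4.53 ± 0.78 in model tumours (adjusted p = 0.00207). Col13a1, found at cell contacts and the neuromuscular junction, fell as well (-2.23 ± 0.36 in AC and -1.67 ± 0.33 in model tumours, adjusted p = 0.00185 and 0.00397), and without sham 2 it did not pass the filter in AC against sham. Col17a1, the hemidesmosome collagen of skin, was not called, at 0.0813 to 0.178 FPKM in all 9 libraries. Col25a1 had 2, 5 and 32 counts in AC, model and sham and did not pass the filter on low counts. Its scaled ratio was 23.5-fold lower in AC than in sham (counting interval 5.98 to 202), and DESeq2's Wald test called it in both comparisons with colon.

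Col7a1 (ENSMUSG00000025650, chromosome 9, 108953586 to 108984875, plus strand), the anchoring fibril below epithelia, rose in tumours although epithelial markers were lower there. It had 3.20, 1.08 and 0.677 FPKM in AC, 0.476, 1.15 and 1.13 FPKM in model and 0.0605, 0.113 and 0.190 FPKM in sham. AC 1 was the highest of all and the other AC libraries lay within the model range. The rise was 3.08 ± 0.72 in AC (adjusted p = 0.00872) and 2.26 ± 0.53 in model tumours (adjusted p = 0.00803). Col28a1, a collagen of peripheral nerve, was not called in AC or model tumours, with 0.01 ± 0.60 and 0.58 ± 0.56.

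No chain that fell in tumours reached a mean of 1 FPKM in colon, so the falls concerned low transcripts: the highest colon means among them were 0.779 FPKM for Col6a4 and 0.550 FPKM for Col23a1. The tested chains left without a call in AC tumours against colon were Col6a2, Col9a3, Col11a2, Col12a1, Col17a1, Col20a1 and Col28a1. In model tumours against colon they were Col9a3, Col11a2, Col17a1, Col20a1, Col24a1 and Col28a1. Col24a1, a minor fibril chain, had 1.15 ± 0.47 in model tumours against colon (adjusted p = 0.0658). It was called there without model 2 (adjusted p = 0.0426) and without scaling factors (1.74, adjusted p = 0.0127). In AC tumours Col9a3 was called without scaling factors (1.05, adjusted p = 0.0363). Col9a3 shares 6.07% of its exon length with a gene on the opposite strand, and whether reads were counted by strand is not given in the sources used here. Col9a1 and Col26a1 had 0 counts in all 9 libraries, and Col2a1, Col9a2, Col11a1 and Col22a1 were not tested in any comparison, with at most 34 counts over a group.

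In AC tumours against model tumours, the comparison that addresses the herbal mixture, no collagen chain was called among 30 tested, beside 0% of all 17137 genes. At an unadjusted p under 0.05 there were 14 of 30 chains, all but Col9a3 lower in AC tumours, beside 13.1% of all genes (2253 of 17137). Lower in AC tumours were 7.33% of all genes (1256 of 17137). DESeq2's Wald test called 5 chains lower of the 21 to which it gave an adjusted p, beside 2.24% of 13169 genes called in either direction and 1.63% lower. Log2 fold changes were below 0 for 22 of 30 chains, beside 48.6% of all genes, with a median of -0.38 beside 0.00996 over all genes. FPKM did not overlap for 11 of the 30, beside 19.2% of all genes.

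The 5 chains called by DESeq2 had similar sizes. In edgeR's test Col6a1 had -0.73 ± 0.19 (SE, adjusted p = 0.257, DESeq2 0.00384), Col5a3 -0.63 ± 0.15 (0.24 and 0.0333), Col5a1 -0.61 ± 0.16 (0.257 and 0.0208), Col1a1 -0.58 ± 0.15 (0.257 and 0.0211) and Col4a1 -0.51 ± 0.13 (0.249 and 0.0222). Col5a3, the minor collagen V chain, had 1.74, 1.85 and 1.85 FPKM in AC tumours against 2.51, 2.52 and 3.23 FPKM in model tumours. Col5a1 had 8.42, 11.9 and 8.99 FPKM in AC against 16.9, 12.6 and 14.5 FPKM in model tumours. For both, and for Col6a1, Col1a1 and Col4a1 with the values given above, all AC libraries lay below all model libraries. Summed fibroblast markers were also lower in every AC library than in any model library, none of the 10 was called, and their part in the collagen values was not tested. Col1a2 had -0.32 ± 0.11 and Col8a1 -0.43 ± 0.14 (edgeR adjusted p = 0.291 for each), also without overlap. Col9a3, a cartilage collagen at 0.566, 0.381 and 0.339 FPKM in AC against 0.199, 0.200 and 0.283 FPKM in model tumours, and Col6a5, at 0.0880 to 0.119 against 0.0644 to 0.0818 FPKM, were the tested chains with all AC values above all model values. Neither was called (0.89 ± 0.34, adjusted p = 0.333, and 0.48 ± 0.35, adjusted p = 0.575).

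**Figure D4:**
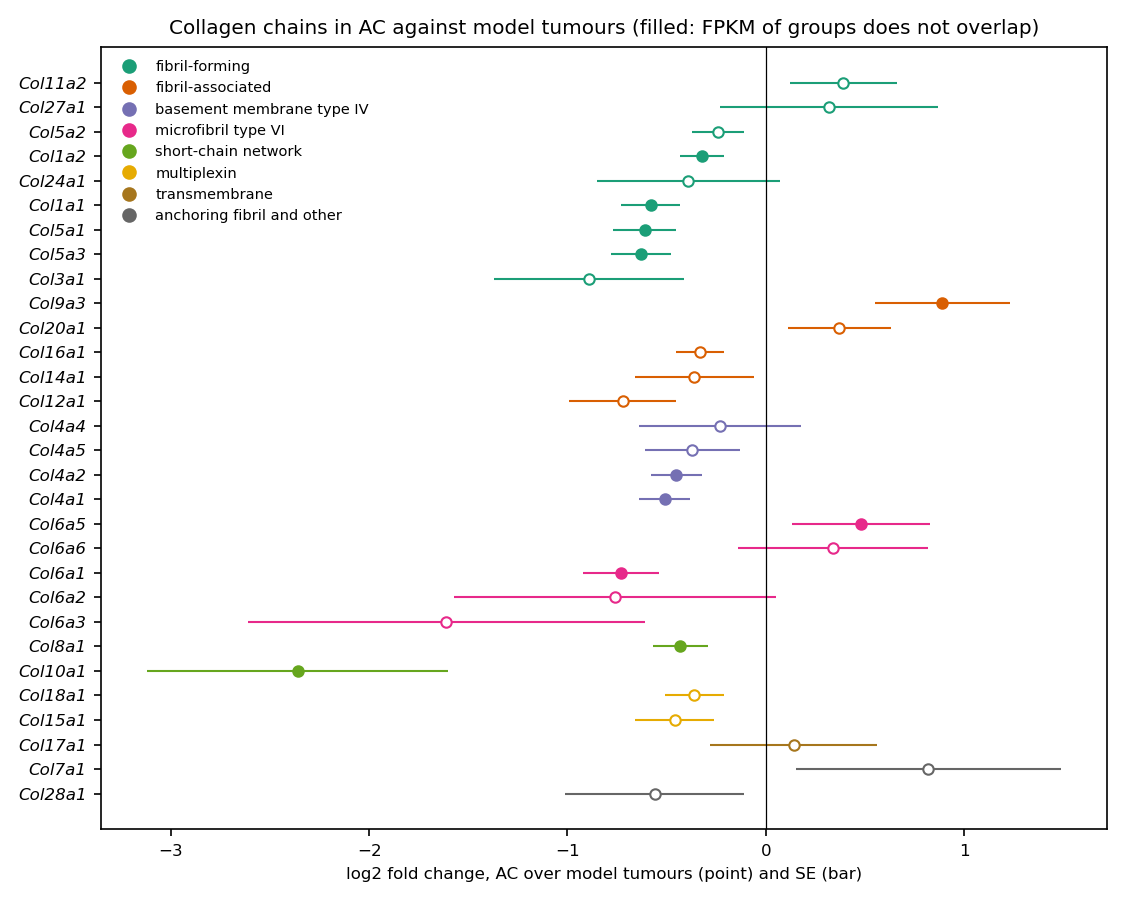
Log2 fold change (point) and SE (bar) of the 30 tested collagen chains in AC over model tumours, coloured by structural class; filled points are chains whose FPKM did not overlap between the groups. Of the chains, 22 lie left of 0 and 8 right of it, none was called by edgeR, and Col6a3 and Col6a2 have the longest bars.

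Some chains differed more between AC libraries than between the groups. Col6a3 had 1.45, 3.70 and 15.7 FPKM in AC against 24.7, 12.8 and 25.2 FPKM in model tumours, Col6a2 1.26, 1.63 and 7.63 against 6.82, 4.16 and 6.57 FPKM, and Col3a1 the values given above. For all 3, AC 1 and AC 2 lay below every model library and AC 3 lay within or above the range of the model libraries. Their fold changes carried correspondingly large errors, with -1.61 ± 1.00 for Col6a3, -0.76 ± 0.81 for Col6a2 and -0.89 ± 0.48 for Col3a1 (adjusted p = 0.55, 0.727 and 0.488). Col6a1, the partner of Col6a2 and Col6a3, varied less, so its ratio to Col6a2 was 20.03, 13.3 and 4.89 in AC against 6.91, 10.4 and 7.10 in model tumours. Col6a2, Col6a3 and Col3a1 were singled out after their values were seen.

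Both AC 1 and AC 2 lay below all other 4 tumour libraries for 15 of the 44 collagen chains and 4 of 10 fibroblast markers. The same order held for 6 of 11 collagen receptors, 3 of 9 genes of collagen breakdown, 2 of 20 of collagen synthesis and none of 13 of procollagen processing. B cell markers showed it for 4 of 7, endothelial and epithelial markers for 1 of 8 each, and macrophage markers for 0 of 8. This order was set after the values of Col6a2, Col6a3 and Col3a1 were seen, and these chains are among the 15. The share over all genes was not counted, so these counts do not show a pattern particular to any list. Some of the 15 chains had few counts, such as Col2a1 with 2 over the AC and 3 over the model libraries. Fap, Dcn and Mrc2 were chosen from the fibroblast, receptor and breakdown lists after their values were seen. Fap, a protease of activated fibroblasts, had 0.395, 0.608 and 4.601 FPKM in AC against 4.54, 2.48 and 3.93 FPKM in model tumours. Dcn, a small proteoglycan that binds collagen fibrils, had 5.78, 15.4 and 41.1 FPKM in AC against 30.2, 30.7 and 41.3 FPKM in model tumours, and Mrc2, a receptor that takes up collagen, 3.87, 4.12 and 9.87 FPKM against 14.4, 8.70 and 13.4 FPKM. Other fibroblast markers had another order: Thy1 had 7.03, 4.21 and 4.19 FPKM in AC against 5.31, 4.54 and 5.14 FPKM in model tumours, and Fbln2 had 34.0, 46.6 and 26.6 FPKM against 42.4, 48.3 and 37.3 FPKM. Epithelial transcripts were high in AC 3 and model 1, as given above. The part of fibroblasts and of epithelial cells in the collagen values was not tested. Without AC 3, edgeR called 4 of 30 tested chains lower in AC, beside 3.21% of 17749 genes called and 2.36% called lower. They were Col10a1 (-4.04, adjusted p = 0.0175), Col6a2 (-2.05, adjusted p = 0.0164), Col3a1 (-1.51, adjusted p = 0.0356) and Col6a1 (-1.0, adjusted p = 0.00696). AC 3 was the highest AC library for all 4, so leaving it out favours these calls, which lend no independent support. Leaving out any other single library gave 0 calls. Without both libraries rich in epithelial transcripts, AC 3 and model 1, edgeR called 3 of 30, Col10a1, Col6a1 and Col6a2, all lower. Beside them, 0.549% of 17132 genes were called and 0.467% called lower. AC 3 was again left out, which favours these calls, so they lend no independent support either. Col10a1 itself had 0.0714, 0.0204 and 0.377 FPKM in AC against 0.572, 1.07 and 0.736 FPKM in model tumours, with -2.36 ± 0.76 over all 6 libraries (adjusted p = 0.292).

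**Figure D5:**
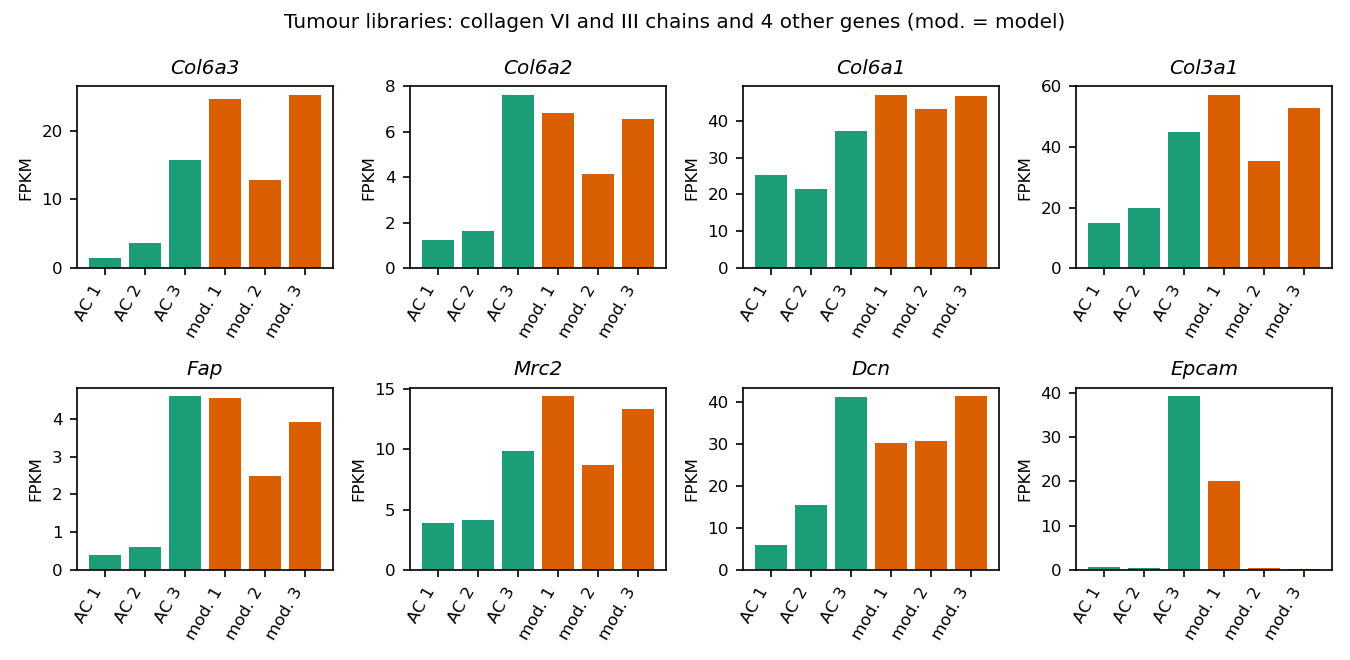
FPKM in each tumour library (bars from 0, AC tumours left and model tumours right) of collagen VI and III chains, of Fap, Mrc2 and Dcn, and of the epithelial marker Epcam. AC 1 and AC 2 lie below the other 4 libraries for the 4 collagen chains and for Fap, Mrc2 and Dcn, genes chosen after their values were seen, as they do for 4 of 10 fibroblast markers in all, and Epcam is high in AC 3 and model 1 only.

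Genes that act on collagen were counted in 4 lists, each beside the shares of all genes, which were 35.5% higher and 32.7% lower in AC tumours and 36.8% higher and 32.9% lower in model tumours against colon. Of 20 genes for collagen synthesis and secretion, 14 of 17 tested rose and 1 fell in AC tumours, and 14 of 18 rose and 1 fell in model tumours against colon. Fkbp10, a chaperone of the endoplasmic reticulum, had 31.0, 28.0 and 22.7 FPKM in AC, 25.3, 26.0 and 26.5 FPKM in model and 0.593, 0.615 and 0.513 FPKM in sham, a rise of 4.91 ± 0.19 in AC and 4.89 ± 0.16 in model tumours (adjusted p = 2.61e-05 and 1.44e-05). Serpinh1, the collagen-specific chaperone HSP47, rose by 4.75 ± 0.17 and 4.50 ± 0.17, and P3h3, a partner of lysyl hydroxylation, by 5.36 ± 0.31 and 5.56 ± 0.30. Creb3l1, a membrane-bound factor known to drive collagen I transcription in bone, was the gene that fell, with -3.68 ± 0.59 in AC and -3.34 ± 0.70 in model tumours (adjusted p = 0.00174 and 0.00497), and was named after its value was seen. In AC against model tumours none of 18 was called, with a median of -0.10, and Plod2, a lysyl hydroxylase, had the smallest adjusted p (-0.37 ± 0.14, adjusted p = 0.331). Serpinh1 lay at 0.27 ± 0.12 there (adjusted p = 0.406).

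Of 13 genes that process or crosslink procollagen, 9 of 10 tested rose and none fell in each tumour group against colon, beside 35.5% (AC) and 36.8% (model) of all genes higher. Loxl4, Loxl3 and Adamts14 had the smallest adjusted p in model tumours, with Loxl4, a lysyl oxidase, at 16.3, 17.4 and 13.7 FPKM in AC, 14.8, 25.9 and 13.5 FPKM in model and 0.0148, 0.0553 and 0.107 FPKM in sham. The rises in AC and in model tumours were 7.32 ± 0.48 and 7.56 ± 0.58 for Loxl4, 6.09 ± 0.38 and 5.87 ± 0.33 for Loxl3, and 6.44 ± 0.55 and 6.26 ± 0.44 for Adamts14, a procollagen N-proteinase (adjusted p from 3.21e-05 to 0.000159). None of 10 was called in AC against model tumours, with a median of -0.14.

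Of 11 receptors, 10 were tested, and 6 rose and 3 fell in each tumour group against colon, beside 68.2% (AC) and 69.7% (model) of all genes called in either direction. Ddr2, a receptor kinase for fibrillar collagen, rose by 4.32 ± 0.28 in AC and 4.56 ± 0.29 in model tumours, and Mrc2 by 4.45 ± 0.51 and 5.51 ± 0.32. Itga2, an integrin subunit common on epithelium and platelets, fell, with -2.90 ± 0.30 in AC and -1.88 ± 0.18 in model tumours (adjusted p = 0.000298 and 0.000191), as did Ddr1, an epithelial receptor kinase, and Itga1, both named after their values were seen. In AC against model tumours Itga2 had 0.446, 0.679 and 0.889 FPKM against 1.35, 1.09 and 1.56 FPKM, without overlap, and -1.01 ± 0.28 (adjusted p = 0.257), so none of 10 was called, with a median of -0.21.

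Of 9 genes that break collagen down, 6 rose in AC and 7 rose in model tumours against colon, and none fell, beside 68.2% (AC) and 69.7% (model) of all genes called and 35.5% (AC) and 36.8% (model) of all genes higher. Mmp14, a membrane-bound collagenase, had 14.4, 17.0 and 18.1 FPKM in AC, 26.5, 24.1 and 24.6 FPKM in model and 2.56, 1.76 and 1.38 FPKM in sham. The 3 groups did not overlap. It rose by 2.48 ± 0.24 in AC and 3.12 ± 0.24 in model tumours (adjusted p = 0.00026 and 7.56e-05) and had -0.63 ± 0.11 in AC against model tumours, with the smallest adjusted p of the 4 lists (0.137). Ctsk, a collagen-cleaving cathepsin, and Mmp9, a gelatinase, had -0.76 ± 0.24 and -0.59 ± 0.20 there (adjusted p = 0.279 and 0.296), and none of the 9 was called, with a median of -0.59.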

How the data were processed

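The authors deposited gene counts without normalization (featureCounts 1.5.0-p3, build mm9, per the submitters' processing notes) and FPKM, which equal the counts over gene length and library total. Libraries were built from total RNA with a VAHTS Universal V6 kit, per the labels' protocols. No aligner or strand setting is given in the sources used here. Dividing counts by FPKM gave gene lengths within 1% of GENCODE M21 (GRCm38) exon sums for 96.3% of 17737 genes with at least 20 counts and for 33 of 34 collagen chains, so symbols and gene coordinates are from that annotation. Of 54446 Ensembl identifiers, 54409 were matched; 1952 features had none.

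Each pair of groups was tested with edgeR 4.0.16 in R 4.3.3 (TMM, filterByExpr, robust quasi-likelihood fit, Benjamini-Hochberg adjustment over all genes, threshold 0.05); the test was tried on simulated counts. Fold changes are log2, with SE. DESeq2 1.42.0 was an alternative. Levels are deposited FPKM. Intervals (95%, exact binomial) and the floor of 3 counts cover counting error only. Values in every library are given for the most abundant chain of each class, for the 4 called chains with the largest rise against colon that reach 1 FPKM (no falling chain reached it), and for their partners; other chains with such values were chosen after these were seen. Pathway lists are represented by up to 3 genes with the smallest adjusted p. The members, lists and tests were chosen with earlier results of these data known. No pair of libraries of a group was identical or within sampling noise (chi-square per degree of freedom 2.88 to 105).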

Additional observations from a re-analysis of the deposited data

How the results depend on the processing

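For AC against model tumours, 0 collagen chains were called with no scaling factors, upper-quartile factors, DESeq2 size factors, no filter, a filter of at least 50 counts in 3 libraries, all 9 libraries in one fit, or the replicate block. DESeq2's Wald test called 5 chains, and leaving out model 1 with AC 3 gave 3. Leaving out each library gave 0 to 4 chains in AC against model, 28 to 31 in model against sham and 23 to 25 in AC against sham. Over all genes in AC against model tumours, DESeq2 called 295, no filter 105, leaving out model 1 with AC 3 94, and leaving out each library 0 to 569. Leaving out each library gave 11677 to 15339 genes in model against sham and 10899 to 14360 in AC against sham. The cause was not tested. Of the chains called against colon, 29 remained in model and 23 in AC tumours with the replicate block, which lost Col8a2 in model and Col6a3 in AC tumours (1.84, adjusted p = 0.122). Deviations of same-numbered libraries from their group means had correlations of -0.493 to 0.409, the highest for AC 2 with model 2. Not every library correlated best with its own number, and the numbers were not taken to pair samples. The stricter filter left 23 chains to test in each comparison with colon, of which 21 were called in model and 19 in AC tumours. DESeq2's Wald test called 32 chains in model and 28 in AC tumours against colon. It gained Col11a1 and Col25a1 in model tumours, and Col4a3, Col6a6, Col8a2 and Col25a1 in AC tumours. With no filter, 30 and 28 were called. That gained Col11a1 and lost Col8a2 in model tumours. In AC tumours it gained Col4a3, Col6a6, Col8a2, Col9a2 and Col25a1 and lost Col6a3.

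Summed collagen as TPM from counts and exon length, in place of FPKM, was 16.7 times colon in AC and 24.1 times in model tumours. The Col1a1 to Col1a2 ratio with the longest coding transcript, a length chosen after the data were seen, was 0.103 in AC, 0.122 in model and 0.276 in sham.

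Signs turned for chains that were not called. With libraries left out, values in AC against model tumours ran from -0.11 to 0.50 for Col17a1 (-0.00 without AC 2, -0.10 without model 1), from -0.42 (without AC 2) to 0.81 for Col27a1, from -0.29 (without AC 1) to 0.85 for Col6a6 and from -0.07 (without AC 1) to 1.19 for Col7a1. In model against sham they ran from -0.35 to 0.04 for Col11a2 and from -0.49 to 0.06 for Col20a1. In AC against sham they ran from -0.21 (without sham 1) to 0.41 for Col20a1, from -0.46 to 0.57 for Col28a1 and from -0.01 (without AC 3) to 1.71 for Col6a2. No scaling gave 0.47 for Col11a2 and for Col20a1 and 0.13 for Col9a3 in model against sham, and 0.12 for Col17a1 in AC against sham. Col28a1 in AC against sham was -0.10 with DESeq2 size factors, -0.06 with DESeq2 and -0.01 with all 9 libraries.

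With 3 libraries per group, chains with few counts (Col4a6, Col19a1, Col10a1, Col6a6) have wide intervals, and 14 chains in AC against model tumours had too few counts to test.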
